A study of Bos taurus with 3 samples.

Results

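The retinoid visual cycle set comprised 9 genes chosen by symbol from the gene table of bovine retina: RBP3, RBP4, RLBP1, RDH5, RDH8, RDH12, RPE65, LRAT and ABCA4. All 9 were found among the 13574 genes listed. The rule names the genes by symbol and uses no measured value, but it was written with earlier results of these data known.

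The visual cycle is the path that rebuilds 11-cis retinal, the light-sensitive group of the visual pigments, after light has turned it into the all-trans form. In photoreceptors the all-trans retinal is released from the pigment, moved across the disc membrane by ABCA4 and reduced to retinol by RDH8 and RDH12. The retinol crosses to the retinal pigment epithelium, where LRAT makes retinyl esters, RPE65 turns them into 11-cis retinol and RDH5 oxidises this to 11-cis retinal. RBP3 carries retinoids between the cells, RLBP1 binds 11-cis retinoids in Müller glia and in the pigment epithelium, and RBP4 carries retinol in plasma. For the comparisons below, RBP3, RDH8, RDH12 and ABCA4 were taken as the photoreceptor step, RLBP1 as the Müller glia step, and RPE65, LRAT and RDH5 as the pigment epithelium step. RBP4 was kept apart as the plasma carrier.

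Poly(A) RNA from dissected retinas was sequenced in 3 libraries, numbered 1 to 3, which form 1 group. The retinas were of mixed strain and were taken between 7 and 10 in the morning, total RNA was pooled for each library, and the labels give no age, sex or treatment. Levels are in FPKM, fragments scaled to the length of the gene and to the reads of the library, so that levels of different genes can be compared per length. The labels do not tell whether different animals stand behind the libraries, so an SD here is the spread among these libraries, and in bulk tissue fewer cells of a type cannot be told apart from less RNA per cell.

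The FPKM values implied 36656987, 39011741 and 49102476 reads in libraries 1, 2 and 3, and 57.6% to 61.0% of them lay on listed genes. A gene of 1 kb reached 3 reads, the counting floor, at 0.0611 to 0.0818 FPKM. XIST, which coats the inactive X, was read 3987, 3 and 3628 times in the respective libraries, so library 2 was not a repeat of the RNA of the others, while the spread between libraries 1 and 3 may be technical. Rod markers were abundant, with PDE6G, GNAT1 and SAG at means of 5103, 4340 and 3452 FPKM, and the Müller glia markers CLU, GLUL and DKK3 had 560, 433 and 337 FPKM. The 8 measured cone markers were led by ARR3, PDE6H and OPN1LW at 545, 291 and 290.2 FPKM, and the 6 endothelial markers by CLDN5, KDR and VWF at 41.0, 15.4 and 3.26 FPKM. These lists match the tissue label. Markers of the pigment epithelium and of pigment cells were led by TTR, SERPINF1 and STRA6, at 15.6, 14.1 and 14.0 FPKM.

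The set spanned a wide range of expression in the retina, from rank 17 for RBP3 to rank 7954 for RPE65. Of the 9 genes 5 averaged 100 FPKM or more, a level that 3.81% of all listed genes reached, 7 of 9 averaged 10 FPKM or more (38.4% of all genes) and all 9 averaged 1 FPKM or more (70.7% of all genes). The median of the members' means was 164 FPKM, against 5.67 FPKM over all genes. Together the members made up 0.641%, 0.763% and 0.870% of the summed FPKM of libraries 1, 2 and 3. Within that sum the photoreceptor step held 79.2% ± 3.76, RLBP1 16.9% ± 3.01, RBP4 2.72% ± 0.414 and the pigment epithelium step 1.22% ± 0.598 (SD, n = 3 libraries for each).

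**Figure D1:**
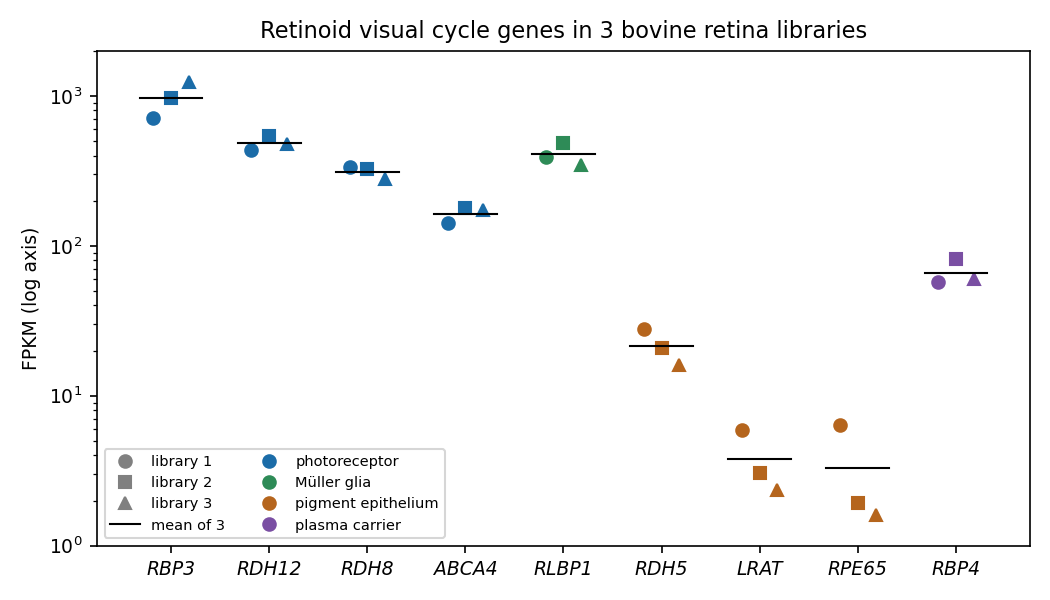
FPKM of the 9 retinoid genes (log axis) in libraries 1 (circles), 2 (squares) and 3 (triangles), coloured by step, with the mean of the 3 libraries as a bar. The 4 photoreceptor genes and RLBP1 lie between 141 and 1241 FPKM in every library, and RPE65 and LRAT lie below 6.4 FPKM with library 1 on top.

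Among the photoreceptor genes the matrix carrier was the most abundant. RBP3, which photoreceptors secrete into the space between themselves and the pigment epithelium, had 714, 964 and 1241 FPKM in libraries 1, 2 and 3 (973 ± 264, SD, n = 3). Library 1 was lowest and library 3 highest, a gap of 1.74-fold.

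The enzymes that reduce all-trans retinal stood next. RDH12, a retinol dehydrogenase of the inner segment, had 433, 536 and 479 FPKM in libraries 1, 2 and 3 (483 ± 51.7, SD, n = 3). RDH8, the retinol dehydrogenase of the outer segment, had 336, 323 and 280 FPKM (313 ± 29.6, SD, n = 3). RDH12 exceeded RDH8 in every library, with ratios of 1.29, 1.66 and 1.71. The lowest library of RDH12 was above the highest library of RDH8, so their values did not overlap. Reads shared between related dehydrogenases could move either value, since how reads with several matches were counted is not stated.

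ABCA4, the ATP-driven transporter of the disc rim whose loss causes Stargardt disease in humans, was the lowest of the photoreceptor genes. It had 141, 179 and 172 FPKM in libraries 1, 2 and 3 (164 ± 20.2, SD, n = 3) and ranked 261. Library 1 was the low one, as it was for RBP3 and RDH12. Set against GNAT1, the rod transducin alpha subunit, ABCA4 kept a nearly constant level, with ratios of 0.0403, 0.0371 and 0.0366 in the 3 libraries. This holds for GNAT1 only, as ratios to the other measured rod markers were not taken. Of those, PDE6B and NR2E3 were also lowest in library 1. PDE6A, PDE6G, SAG and ROM1 were lowest in library 3, and CNGA1 was lowest in library 2. The ratio of RDH12 to GNAT1 was 0.124, 0.111 and 0.102, and that of RDH8 to GNAT1 was 0.0962, 0.0671 and 0.0594. For RBP3 the ratio to GNAT1 was 0.204, 0.200 and 0.264, so library 3 was high for RBP3 also relative to this rod gene.

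The Müller glia step was as abundant as the photoreceptor enzymes. RLBP1, also called CRALBP, had 394, 483 and 348 FPKM in libraries 1, 2 and 3 (408 ± 68.3, SD, n = 3) and ranked 66. Library 2 was highest and library 3 lowest. RGR, a retinal-binding opsin found in Müller glia and in the pigment epithelium, had 560, 587 and 460 FPKM with the same order of libraries. The ratio of RLBP1 to RGR was 0.702, 0.822 and 0.758, a spread of 7.90% of its mean. Relative to GLUL, the glutamine synthetase of Müller glia, RLBP1 varied more, with ratios of 0.817, 1.36 and 0.752, and GLUL was lowest in library 2 where RLBP1 was highest. Ratios to other Müller glia markers were not taken. Of the 9 measured, 4 (VIM, DKK3, CLU and APOE) were highest in library 2 as RLBP1 was, against 29% of all genes averaging 1 FPKM or more. The others, GLUL included, were highest in library 1 or library 3.

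The pigment epithelium step was low, and unequal among its 3 enzymes. RDH5, the 11-cis retinol dehydrogenase, led with 27.8, 20.8 and 16.0 FPKM in libraries 1, 2 and 3 (21.5 ± 5.94, SD, n = 3). It lay above 77.4% of all genes. LRAT, the enzyme that esterifies retinol, had 5.93, 3.07 and 2.35 FPKM (3.78 ± 1.89, SD, n = 3). RPE65, the isomerohydrolase that gives the step its product, had 6.39, 1.92 and 1.61 FPKM (3.31 ± 2.68, SD, n = 3) and lay above 41.4% of all genes. For each of the 3 enzymes library 1 was highest and library 3 lowest, and for RPE65 the mean without library 1 was 1.77 FPKM.

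Read counts show how far these low values are above counting error. RPE65 had 728, 233 and 246 reads in libraries 1, 2 and 3, LRAT 520, 287 and 276, and RDH5 1208, 960 and 932. The level of RPE65 in library 1 was 3.33 times that in library 2 (95% exact interval 2.87 to 3.87) and 3.96 times that in library 3 (3.43 to 4.60). Libraries 2 and 3 were not separated by counting error for this gene, at a ratio of 1.19 (0.992 to 1.43). For LRAT the ratio of library 1 to library 2 was 1.93 (1.67 to 2.24) and to library 3 it was 2.52 (2.18 to 2.93). For RDH5 the corresponding ratios were 1.34 (1.23 to 1.46) and 1.74 (1.59 to 1.89). These intervals cover counting error only, as duplicates made by PCR cannot be told from separate molecules here.

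RBP4, made mainly by the liver and also by the pigment epithelium, was between the groups. It had 57.1, 81.4 and 60.2 FPKM in libraries 1, 2 and 3 (66.2 ± 13.2, SD, n = 3), with library 2 highest and libraries 1 and 3 close together. STRA6, the membrane receptor that takes up retinol from RBP4, had 12.8, 16.6 and 12.8 FPKM. The ratio of RBP4 to STRA6 was 4.46, 4.92 and 4.71. TTR, the transport protein that binds RBP4 in plasma, did not keep this order, with 25.8, 15.6 and 5.36 FPKM. The liver genes fixed as a marker list were mixed: ALB, plasma albumin, had 0.834, 1.07 and 1.14 FPKM and SERPINA1 was listed at 0, while APOA1, TF and AHSG had means of 46.6, 40.6 and 36.2 FPKM. The summed level of the 6 measured liver genes was 123, 143 and 107 FPKM in libraries 1, 2 and 3, and its part in the RBP4 level was not tested.

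Ordered by mean, the members ran RBP3, RDH12, RLBP1, RDH8, ABCA4, RBP4, RDH5, LRAT and RPE65. Neighbours were called separate where the difference of log2(FPKM + 1) within a library had the same sign in all 3 libraries and a mean over 2 SD. Of the 8 neighbour pairs 6 met this. The order came from the means of these same libraries, which largely set the direction of each difference. The share of other gene pairs that would be called separate was not computed, so the count describes the members only. RBP3 stood above RDH12 by 0.98 ± 0.35 and RDH8 above ABCA4 by 0.93 ± 0.29 on the log2 scale (SD, n = 3). RDH12 and RLBP1 did not separate, at 0.25 ± 0.18, although RDH12 was higher in 3 of 3 libraries. LRAT and RPE65 did not separate either, at 0.25 ± 0.30, with RPE65 above LRAT in library 1 and below it in libraries 2 and 3. The gap from RBP4 to RDH5 was 1.59 ± 0.50 and that from RDH5 to LRAT 2.27 ± 0.19. With 3 libraries the exact two-sided sign-flip test cannot give a p below 0.25, which all pairs but LRAT and RPE65 (exact p = 0.5) reached, so no pair could pass at 0.05.

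The steps were then contrasted within each library. The mean log2(FPKM + 1) of the 4 photoreceptor genes exceeded that of the 3 pigment epithelium genes by 4.94, 6.03 and 6.28 in libraries 1, 2 and 3. The mean difference was 5.75 ± 0.71 (SD, n = 3), or 53.8-fold on the scale of FPKM + 1, higher in 3 of 3 libraries (exact two-sided sign-flip p = 0.25, the smallest that 3 libraries allow). RLBP1 exceeded the pigment epithelium step by 5.11, 6.24 and 6.04, a mean of 5.80 ± 0.60 or 55.7-fold (SD, n = 3, exact p = 0.25). In both contrasts library 1 gave the smallest difference. RLBP1 and the photoreceptor step differed by 0.18, 0.21 and -0.24 in libraries 1, 2 and 3, a mean of 0.05 ± 0.25 that is less than the spread between libraries (exact p = 1). The fold between steps understates the ratio of FPKM for low genes such as RPE65, since 1 FPKM was added. On FPKM itself RLBP1 was 61.5, 251 and 216 times RPE65 in libraries 1, 2 and 3.

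The libraries did not differ to the same degree for every member. On FPKM + 1, the highest library was at least 1.5-fold above the lowest for 4 of 9 members, RBP3, RPE65, LRAT and RDH5, against 19.9% of the 9599 genes that averaged 1 FPKM or more. At 2-fold the count was 2 of 9, RPE65 at 2.83-fold and LRAT at 2.07-fold, against 3.27% of those genes. A spread as wide as that of RPE65 was seen in 0.667% of them and one as wide as that of LRAT in 2.79%. The count at 1.5-fold was 0 without library 1 and 2 without library 3, and LRAT was below 2-fold once the libraries were scaled to equal sums. Leaving out a library cannot raise the spread of any gene. The share of all genes was not computed for these settings, so these counts describe the members only. RDH8, RDH12 and ABCA4 had spreads of 1.20, 1.24 and 1.27, below the median of 1.28 over all these genes. Of the 10 pigment epithelium and pigment cell markers averaging 1 FPKM or more, 6 reached 1.5-fold and 2 reached 2-fold. Of the 9 measured Müller glia markers 3 reached 1.5-fold. None of the 8 measured rod markers reached 1.5-fold, with PDE6G the most variable at 1.44-fold. Among the 8 cone markers 2 did, PDE6H at 4.89-fold and GNAT2 at 1.60-fold. RBP3, at 1.74-fold, lay above all of these rod and cone markers but PDE6H.

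**Figure D2:**
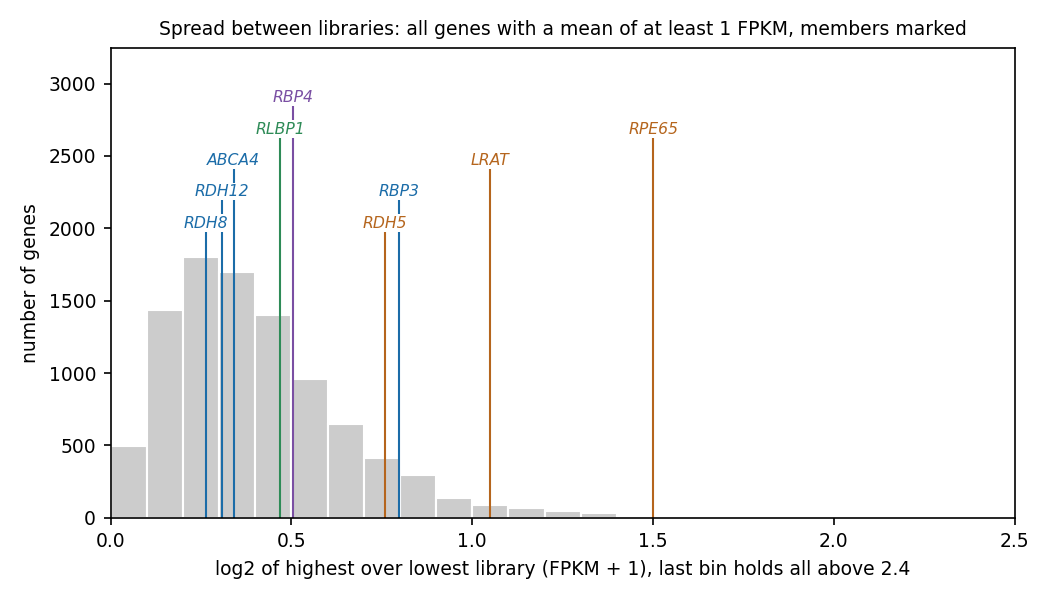
Number of genes (bars, of 9599 averaging 1 FPKM or more) by the log2 ratio of the highest to the lowest library on FPKM + 1, with vertical lines at the 9 retinoid genes, coloured by step as in the plot of levels. RDH8, RDH12 and ABCA4 fall in the bulk of the genes, and LRAT and RPE65 fall in its upper tail, at 2.07-fold and 2.83-fold.

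The direction of the differences varied among the members, also within the photoreceptor step. Library 1 was the highest library for 4 of 9 members, library 2 for 4 and library 3 for 1, against 45.3%, 29% and 25.7% of those genes, so these counts are near the background. In size, RPE65 in library 1 stood 1.42 above the mean of the other libraries on the log2 scale of FPKM + 1, LRAT 0.90 and RDH5 0.57, and a level in library 1 at least 1.5-fold that of the others, as RPE65 and LRAT had, was seen for 6.67% of all these genes. At 2-fold, which RPE65 alone of the members reached, the share was 1.27%. The photoreceptor genes RBP3, RDH12 and ABCA4 lay below the other libraries in library 1, by -0.63, -0.23 and -0.31, while RDH8 lay above by 0.16. RLBP1 was near level, at -0.08, and RBP4 was at -0.31. Library 3 was lowest for RPE65, LRAT, RDH5, RLBP1 and RDH8 and highest for RBP3.

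Gene length moved with these differences. Among genes as long as RDH12 and RBP4 (910 to 1087 bases in the table) library 3 was 0.36 below the other libraries in the median, and among genes of the length class of ABCA4 it was 0.26 above. Genes of the length of RPE65 (2960 to 3260 bases) had medians of 0.01, -0.06 and 0.04 for libraries 1, 2 and 3. With the length trend removed, an alternative chosen after the data were seen, RPE65 still stood 1.41 and LRAT 0.85 above the other libraries in library 1. RDH5, a short gene of 1184 bases, was then at 0.37, with a spread of 1.35-fold. RBP3 kept 1.63-fold, with library 3 at 0.45 and library 1 at -0.59. For 3 members library 3 changed sign against the others, from -0.02 to 0.31 for RDH12, from 0.11 to -0.15 for ABCA4 and from -0.20 to 0.12 for RBP4.

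Markers of the pigment epithelium and of pigment cells were set beside these values, because a dissected retina can carry such cells along. Of the 16 markers fixed, 13 were measured and 10 averaged 1 FPKM or more. The summed level of the list was 78.7, 81.0 and 53.0 FPKM in libraries 1, 2 and 3, and 67.9, 57.7 and 44.8 FPKM without SERPINF1, an alternative added after the data were seen. Against the other libraries the median marker of the 10 stood at 0.17, -0.03 and -0.60 on the log2 scale in libraries 1, 2 and 3. Of the 10 markers 5 were highest in library 1, near the 45.3% of all genes. TYR, the enzyme that starts melanin synthesis, was the lowest of the 13, with 0, 0 and 1 read, while PMEL had 311, 325 and 216 reads and BEST1 290, 107 and 132 reads.

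Single markers of the list fell into different patterns. BEST1, a chloride channel of the pigment epithelium, had 2.11, 0.733 and 0.718 FPKM, and its ratio of library 1 to library 2 was 2.88 (95% exact interval 2.30 to 3.63). The secreted C1QTNF5 had 4.93, 3.33 and 2.06 FPKM, and DCT, an enzyme of melanin synthesis, had 48, 19 and 17 reads. These genes shared the high library 1 of RPE65. TTR, also on this list, had its highest level there too, and so had MLANA, a melanosome protein, with 1.99, 1.58 and 0.685 FPKM. PMEL, the fibril protein of melanosomes, was alike in libraries 1 and 2 and lower in library 3, with 4.15, 4.07 and 2.15 FPKM.

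Other markers did not share that pattern. TYRP1, a melanosome enzyme, had 2.06, 1.77 and 2.24 FPKM, MITF, a transcription factor of pigment cells, had 1.69, 1.46 and 2.33 FPKM, and GPNMB had 11.4, 12.1 and 16.0 FPKM, all highest in library 3. SERPINF1, the secreted factor PEDF, had 10.8, 23.4 and 8.24 FPKM and STRA6 was also highest in library 2. RRH, an opsin of the pigment epithelium, had 14, 8 and 14 reads. The part of pigment epithelium cells in the levels of RPE65, LRAT and RDH5 was not tested.

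**Figure D3:**
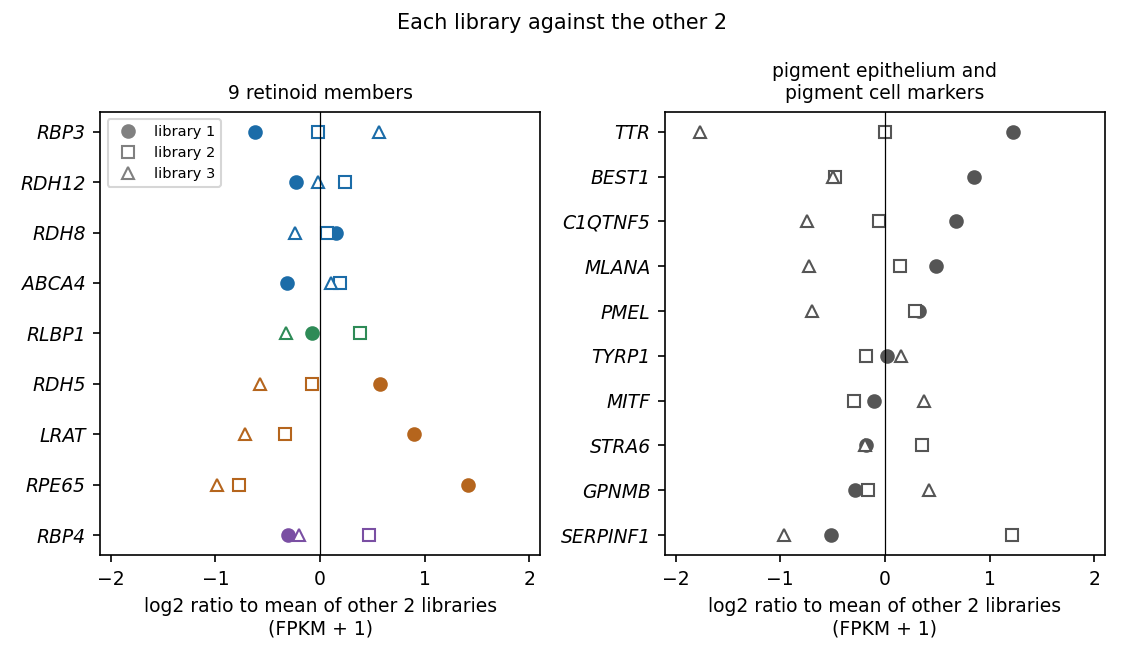
Log2 ratio of each library to the mean of the other libraries on FPKM + 1, for the 9 retinoid genes (left, coloured by step) and the 10 pigment epithelium and pigment cell markers averaging 1 FPKM or more (right), with library 1 as filled circles, library 2 as open squares and library 3 as open triangles. RPE65, LRAT and RDH5 on the left and TTR, BEST1 and C1QTNF5 on the right have library 1 far to the right, while TYRP1, MITF, STRA6, GPNMB and SERPINF1 do not.

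Ratios within a library show which of the low genes kept step with BEST1, a marker that shared the high library 1 of RPE65. RPE65 was 3.03, 2.62 and 2.25 times BEST1 in libraries 1, 2 and 3, so that a 3.96-fold range of RPE65 narrowed to 1.35-fold. That narrowing belongs to this marker. It follows from the high library 1 that both genes had, so it is a description and tests nothing. TYRP1, MITF and GPNMB were highest in library 3 and SERPINF1 and STRA6 in library 2, and ratios of RPE65 to these were not taken. LRAT was 2.80, 4.19 and 3.27 times BEST1, with library 2 highest. RDH5 was 13.2, 28.4 and 22.3 times BEST1, a range of 2.15-fold that is wider than its own range of 1.74-fold. RDH5 relative to RPE65 was 4.35, 10.8 and 9.94, with library 1 again apart. RPE65 relative to LRAT was highest in library 1 as well, with 0.626 and 0.687 in libraries 2 and 3.

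The other genes of the retinoid pathway were taken from 5 lists. Of 39 genes 31 were measured. Of these 22 averaged 1 FPKM or more (70.7% of all genes), 14 averaged 10 FPKM or more (38.4%) and 2 averaged 100 FPKM or more (3.81%). These counts are near the shares over all genes. Their median was 6.19 FPKM ± 0.796 (SD of the library medians, n = 3), against 5.67 FPKM over all genes. The 4 photoreceptor members and RLBP1 each exceeded that median more than any pathway gene other than RGR and CRABP1. RDH11, a close relative of RDH12, and RXRA were among the genes not analysed here.

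Of the 9 other retinol and retinal dehydrogenases measured, 3 reached 10 FPKM, near the share of 38.4% of all genes. None reached the level of RDH8 or RDH12. RDH10, which oxidises retinol on the way to retinoic acid, had 30.7, 20.8 and 24.4 FPKM, RDH14 had 24.4, 24.1 and 18.3 FPKM and DHRS4 had 16.5, 17.9 and 16.8 FPKM. RDH10 was highest in library 1 and lowest in library 2, and thus did not follow the order of RDH5. DHRS3, a retinal reductase, had a mean of 3.53 FPKM ± 0.461 (SD, n = 3). RDH16 and DHRS9 were near the floor, with 3 to 6 reads in each library.

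Among the binding proteins CRABP1, the cellular retinoic acid-binding protein, was by far the highest outside the 9 members. It had 250, 278 and 171 FPKM in libraries 1, 2 and 3 and stood at 0.490 to 0.637 of RLBP1. FABP5, a fatty acid-binding protein that can also carry retinoic acid, had 72.5, 53.3 and 34.2 FPKM. Both were lowest in library 3. CRABP2 had a mean of 2.35 FPKM, RBP5 of 1.07 FPKM, and RBP2, the intestinal retinol-binding protein, was listed at 0 in each library.

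For ester and isomer handling RGR was the one gene at the level of the photoreceptor enzymes, at 536 FPKM ± 67.2 (SD, n = 3), and it was 87.6, 305 and 285 times RPE65 in libraries 1, 2 and 3. DGAT1, an acyltransferase that can also esterify retinol, had 91.8, 58.0 and 58.5 FPKM and so was far above LRAT in every library. DEGS1, a desaturase that has been proposed as a retinol isomerase of Müller glia, had 26.2, 25.3 and 21.7 FPKM. The carotenoid-cleaving enzyme BCO2 was at 2 to 3 reads, and CES1, a carboxylesterase, had 0, 0 and 1 read.

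Of the 6 genes listed for retinoic acid synthesis and breakdown 3 were measured, with a median of 3.10 FPKM against 5.67 FPKM over all genes. ALDH1A2, ALDH1A3 and CYP26C1 were not analysed. ALDH1A1, a retinal dehydrogenase that makes retinoic acid, had 5.39, 6.95 and 6.24 FPKM, and CYP26A1, which degrades it, had 2.50, 4.63 and 2.17 FPKM with library 2 apart. CYP26B1 had a mean of 0.840 FPKM. The 4 measured receptors ranged from RARG at 5.65 FPKM to RXRG, a receptor of cones, at 30.3 FPKM ± 6.26, with RXRB at 25.5 FPKM ± 2.92 and RARA at 16.4 FPKM ± 1.83 (SD, n = 3). RXRG was lowest in library 1, at 23.4 FPKM, against 35.7 and 31.9 FPKM in libraries 2 and 3.

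**Figure D4:**
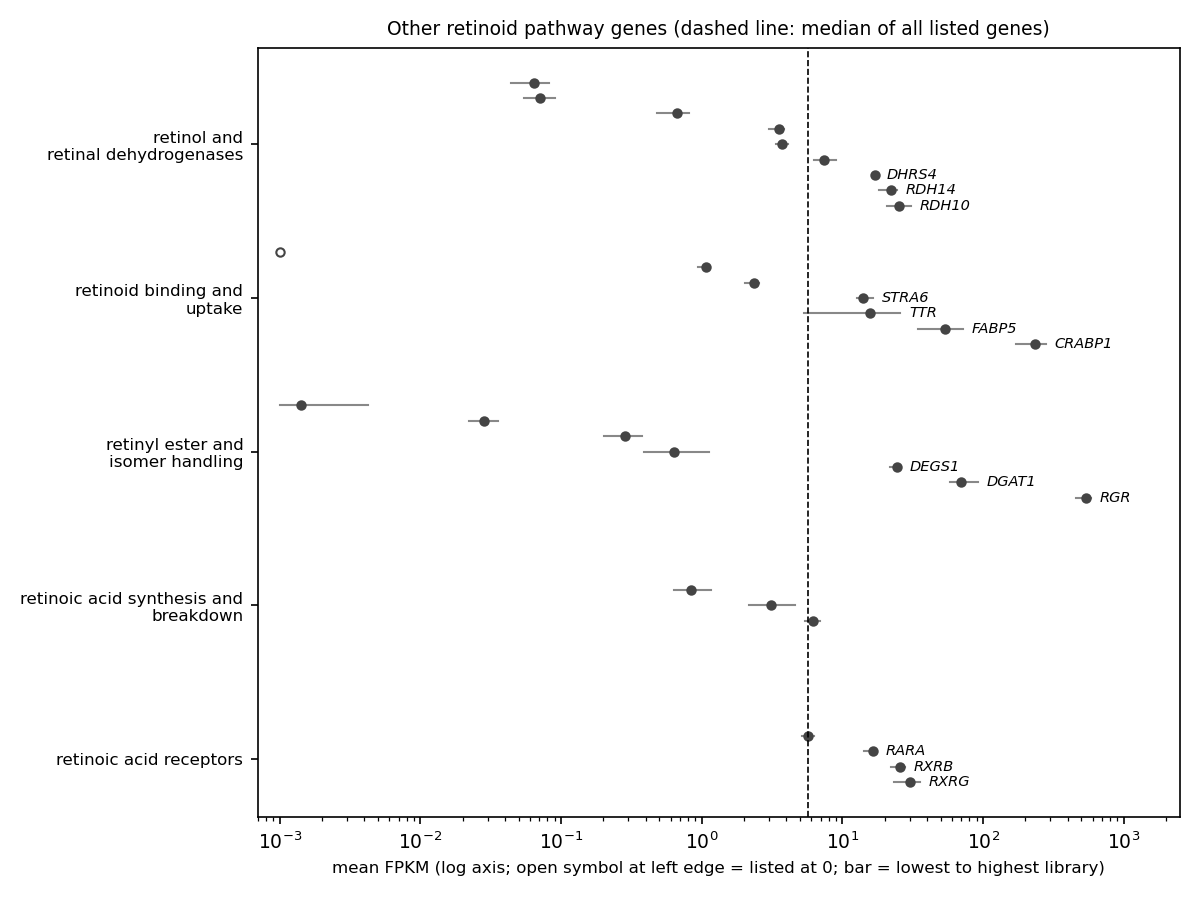
Mean FPKM (log axis, bars from the lowest to the highest library) of measured pathway genes outside the 9 members, by list, with names for those at 10 FPKM or more and a dashed line at the median of all genes, 5.67 FPKM. RGR and CRABP1 alone lie above 100 FPKM, and TTR has the longest bar among the named genes.

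Likeness of profile was measured as the Euclidean distance between the library values of log2(FPKM + 1), each taken from its own mean over 3 libraries, against the 74 listed genes that averaged 1 FPKM or more. The gene nearest to RPE65 was LRAT, at 0.43, followed by BEST1 at 0.48 and C1QTNF5 at 0.63. LRAT was nearest to BEST1 at 0.20, then to C1QTNF5 at 0.23 and RDH5 at 0.27. RDH5 was nearest to C1QTNF5 at 0.14, then to MLANA at 0.19 and the endothelial marker CLDN5 at 0.22. The photoreceptor genes paired with cone and rod genes in part, ABCA4 with PDE6C at 0.011 and PDE6B at 0.059, and RDH12 with OPN1SW at 0.024. Other types of gene were about as near, ALDH1A1 at 0.027 and the endothelial marker VWF at 0.050 for RDH12. For ABCA4 the third was the Müller glia marker DKK3 at 0.078. RDH8 was nearest to DEGS1 at 0.0039, then to DHRS3 at 0.064 and RBP5 at 0.092. RLBP1 was nearest to DHRS7 at 0.0095, then to ROM1 at 0.026 and ARR3 at 0.096. RBP4 was nearest to VIM at 0.034, then to AHSG at 0.043 and PDE6G at 0.080. RBP3 was nearest to KDR, an endothelial receptor, at 0.18, then to the cone marker OPN1LW at 0.21 and GPNMB at 0.28. Among 9598 genes, the number that lay as near as the nearest listed gene was 104 for RPE65, 143 for LRAT, 319 for RDH5, 86 for RBP3, 22 for RDH12, 12 for RBP4, 8 for ABCA4, 3 for RLBP1 and 2 for RDH8.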

How the data were processed

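Per the labels' protocols, pooled total RNA was used for each of 3 retina libraries, and 400 to 450 ng of poly(A) RNA was copied with random primers and fragmented. CASAVA 1.8.1, GSNAP and HTSeq were used, per the submitters' processing notes. Their settings, the genome build, the annotation and the use of strand are not stated there. The FPKM values, per the file headers, were computed and deposited by the authors, and no per-sample column was left unused.

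Here FPKM times gene length fell on whole multiples of 1 step per library (within 0.1 for 100% of values up to 2000 reads), which gave denominators and reads. With 1 group no count model was run. Members were compared within libraries on log2(FPKM + 1) by exact two-sided sign-flip tests, and lists were described by counts and medians. Recovery of the denominators, and of genes set to be raised in 1 library, was checked on counts simulated with Poisson error only. The same formula built the simulated FPKM, so the check is of the code and not of the results. Members and lists were chosen with earlier results of these data known. Named genes were the members, pathway genes at 10 FPKM or more, the 3 highest of each marker list, all pigment markers and the 3 nearest profiles per member. Other genes were named after their values were seen, and some genes that fall under the rule are not reported here, though they count in lists and medians. Of 104 list entries 14 were not analysed. None of the 9 members overlaps another gene in ARS-UCD2.0, which was used for names only. Python 3.11.15, pandas 2.3.3 and SciPy 1.17.1 were used. Alternatives were a pseudocount of 0.1, a minimum of 1 FPKM, 2 library scalings, leaving out each library, and, added after the data were seen, removal of the length trend.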

Additional observations from a re-analysis of the deposited data

How the results depend on the processing

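No comparison between paired groups was possible because the 3 libraries form 1 group. Members and steps were compared as differences within a library. No sign-flip test here could pass, since 3 libraries allow no p below 0.25 and 2 libraries none below 0.5, so these p-values say nothing about stability. The photoreceptor step kept its lead over the pigment epithelium step at 5.48 to 6.16 on the log2 scale without 1 library and 6.03 with a pseudocount of 0.1, and so did RLBP1, at 5.58 to 6.14 and 6.08. Both were within 0.01 of the reported difference under both library scalings and without the length trend, alternatives added after the data were seen. A scaling factor nearly cancels in a difference taken within a library. The length trend was removed as deviations from the mean over libraries. These alternatives could therefore hardly move the mean difference, and they tested little here. A minimum of 1 FPKM removed no member and tested nothing here. RLBP1 against the photoreceptor step ran from -0.0319 to 0.195 without 1 library and thus changed sign. Of the neighbour pairs 6 to 7 separated without 1 library. The count of members with a 1.5-fold spread ran from 0 to 4 without 1 library and was 5 with scaling by the median ratio, which added RBP4, and the count at 2-fold from 0 to 2, and the latter was 1 with libraries scaled to equal sums, scaled by the median ratio, or with the length trend removed (LRAT was lost, at 1.9998-fold in the last of these). With the length trend removed RBP4 took the place of RDH5 among the 4 members at 1.5-fold. Leaving out a library cannot raise a spread, and shares over all genes were not computed for these alternatives. The members' median in library 2 against the others was 0.07 on the log2 scale and -0.0391 with equal sums. The pathway median was 16.0 FPKM among genes of at least 1 FPKM. Depth limits RRH, RDH16, DHRS9, BCO2 and CES1, which had at most 14 reads in a library.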

Other observations

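BCMO1, the enzyme that cleaves beta-carotene to retinal, was chosen after its values were seen, for its high value in library 1. It had 1.13, 0.395 and 0.389 FPKM in libraries 1, 2 and 3, from 78, 29 and 36 reads. Since the choice fixed that direction, the values are a description only.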
